A study of Mus musculus with 18 samples.

Results

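TUBO tumors of mice given only an antibody that blocks semaphorin 4D (anti-Sema4D) were compared with TUBO tumors of untreated control mice. Every sample titled as anti-Sema4D without dendritic cells entered, with every sample titled as untreated control. This gave 4 anti-Sema4D and 4 control samples, 8 of the 18 in the series. TUBO is a mouse mammary carcinoma cell line that carries the HER2/neu oncogene and was injected into female BALB/c mice. Both arms held 2 samples from tumors labelled treated and 2 from tumors labelled untreated. Anti-Sema4D mice received the antibody over 3 weeks, control mice neither antibody nor cells, and all tumors were taken at a common time point. The labels give neither mouse age nor the route of the antibody. They also do not say which tumor of an antibody or control mouse counted as treated, whether 1 mouse gave both tumors, or whether samples came from separate mice. The p-values therefore measure the spread between these samples, which may be technical.

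Semaphorin 4D is a membrane-bound and shed protein of T cells and of many tumor cells, which signals through plexin B receptors. It is known to repel or hold back myeloid and lymphoid cells at tumor margins and to promote vessel growth, and antibodies against it are studied for letting immune cells into tumors. Sema4d, its receptors Plxnb1, Plxnb2 and Cd72, the coupled receptor Met and the oncogene Erbb2 were not analysed here. The epidermal growth factor receptor Egfr, kin of the coupled receptor Erbb2, was the single measured gene of that list, with a log2 difference of -0.23 ± 0.16 (SE, limma adjusted p = 0.668).

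RNA was counted with a NanoString panel for metabolic pathways, which also carries immune and proliferation genes, and values are given on the deposited log2(count + 1) scale for 768 genes. Panel counts ran from 628995 to 989309 in anti-Sema4D samples and from 203509 to 738233 in controls (exact permutation test, two-sided p = 0.343, where 0.0286 is the smallest possible). A scaling factor was divided out of each column where one was found. Control replicate 1 and anti-Sema4D replicate 2 of both kinds of tumor showed none. Their totals are as deposited and may already be scaled, so the test may mix scaled and unscaled totals. Between 518 and 569 genes per sample exceeded a limit set from the negative control probes, 541 did so in at least 4 of the 8 samples and 184 in none. Replicate 2 of the untreated-tumor control stood apart. It had the lowest depth so computed, 203509 counts, and correlated with the other samples at 0.914 to 0.962, against 0.959 to 0.995 among the other 7. Its score on the first principal component, which held 61.75% of the variance, was -12.7, while the other samples lay between -1.64 and 7.63. Results that rest on it are given with and without it. None of the 7 epithelial tumor markers on the list was measured, so the labelled tissue could not be checked in that way. Of 5 macrophage markers, 4 exceeded the limit in at least 4 samples.

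**Figure D1:**
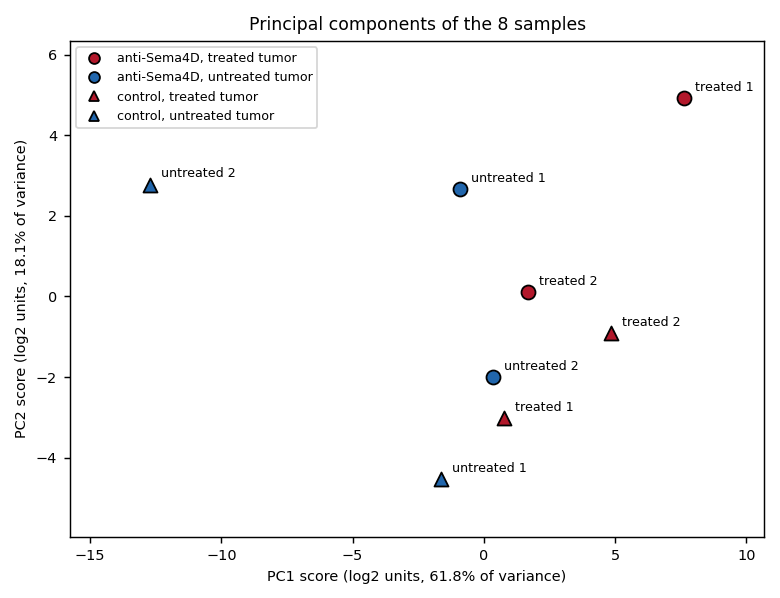
Scores of the 8 samples on the first and second principal components of the panel genes (log2 units), with circles for anti-Sema4D and triangles for control, coloured by kind of tumor. Replicate 2 of the untreated-tumor control lies at -12.7 on the first component and the other 7 samples lie between -1.64 and 7.63, with both arms mixed.

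No gene passed the test between anti-Sema4D and control tumors (0 of 768, 0% called, limma with kind of tumor as a block, adjusted p under 0.05). The smallest adjusted p was 0.298, for the chemokine Cxcl9. At an unadjusted p under 0.05 there were 51 genes, or 6.64% of the panel, with 26 higher in anti-Sema4D tumors (3.39%) and 25 lower (3.26%). The median gene differed by 0.04 (log2) and 432 genes, or 56.25%, had a difference above 0. Without untreated-tumor control replicate 2 the median was -0.0022 and 376 genes, or 48.96%, were above 0. The arms did not overlap for 28 genes (3.65%), with all 4 anti-Sema4D samples above all 4 controls for 8 (1.04%) and below them for 20 (2.6%). The 8 were Cxcl9, Runx1, Xcl1, Slc16a3, Wdr45, Pik3r1, Ass1 and Irf1. Among the 541 measurable genes these were all 8 (1.48%) and 17 of the 20 (3.14%).

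The intervals show which sizes of change these samples allow. Among the 541 genes above the limit in at least 4 samples, the 95% interval of 504 (93.2%) lay within a 2-fold change in either direction, and that of 293 (54.2%) within 1.5-fold. The largest difference among them was 0.80, again Cxcl9, and 0 exceeded 1 on the log2 scale. Each interval was taken gene by gene, and its bounds lay a median of 0.38 from the estimate. Without replicate 2 of the untreated-tumor control, limma again called 0 genes, with 74 at an unadjusted p under 0.05, of which 35 were among the 51, and a smallest adjusted p of 0.19.

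Chemokines that draw lymphocytes led the higher side, with values that did not pass the test. Cxcl9, which interferon-gamma induces and which attracts T cells carrying the receptor Cxcr3, read 7.04 and 7.29 in treated and 6.93 and 7.24 in untreated anti-Sema4D tumors. It read 6.52 and 6.34 in treated and 6.13 and 6.29 in untreated control tumors. Every anti-Sema4D sample was above every control. The difference was 0.80 ± 0.14 (SE, n = 4 each), or 1.75-fold, with a limma p of 0.000388 and adjusted p = 0.298. It was 0.82 without the control that stood apart.

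Ccl5, a chemokine of T cells and macrophages, averaged 6.85 ± 0.48 in anti-Sema4D tumors and 6.19 ± 0.30 in control tumors (SD, n = 4 each). Its difference was 0.66 ± 0.15 (SE, limma adjusted p = 0.424), and the arms overlapped because the untreated anti-Sema4D tumors, at 6.39 and 6.55, reached the level of the treated controls, at 6.49 and 6.39. Xcl1, a chemokine made by natural killer and CD8 T cells that attracts cross-presenting dendritic cells, read 6.92 and 7.0 in treated and 6.46 and 6.49 in untreated anti-Sema4D tumors. Its controls read 6.41 and 6.20 in treated and 6.0 and 6.20 in untreated tumors, so the arms did not overlap (difference 0.52 ± 0.14 SE, limma adjusted p = 0.555). The transcription factor Runx1, which acts in blood cell development, averaged 8.70 ± 0.04 in anti-Sema4D tumors and 8.15 ± 0.13 in control tumors (SD, n = 4 each). Its 4 anti-Sema4D samples spanned 8.65 to 8.75 and its controls 7.97 to 8.25 (difference 0.55 ± 0.12 SE, limma adjusted p = 0.424).

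**Figure D2:**
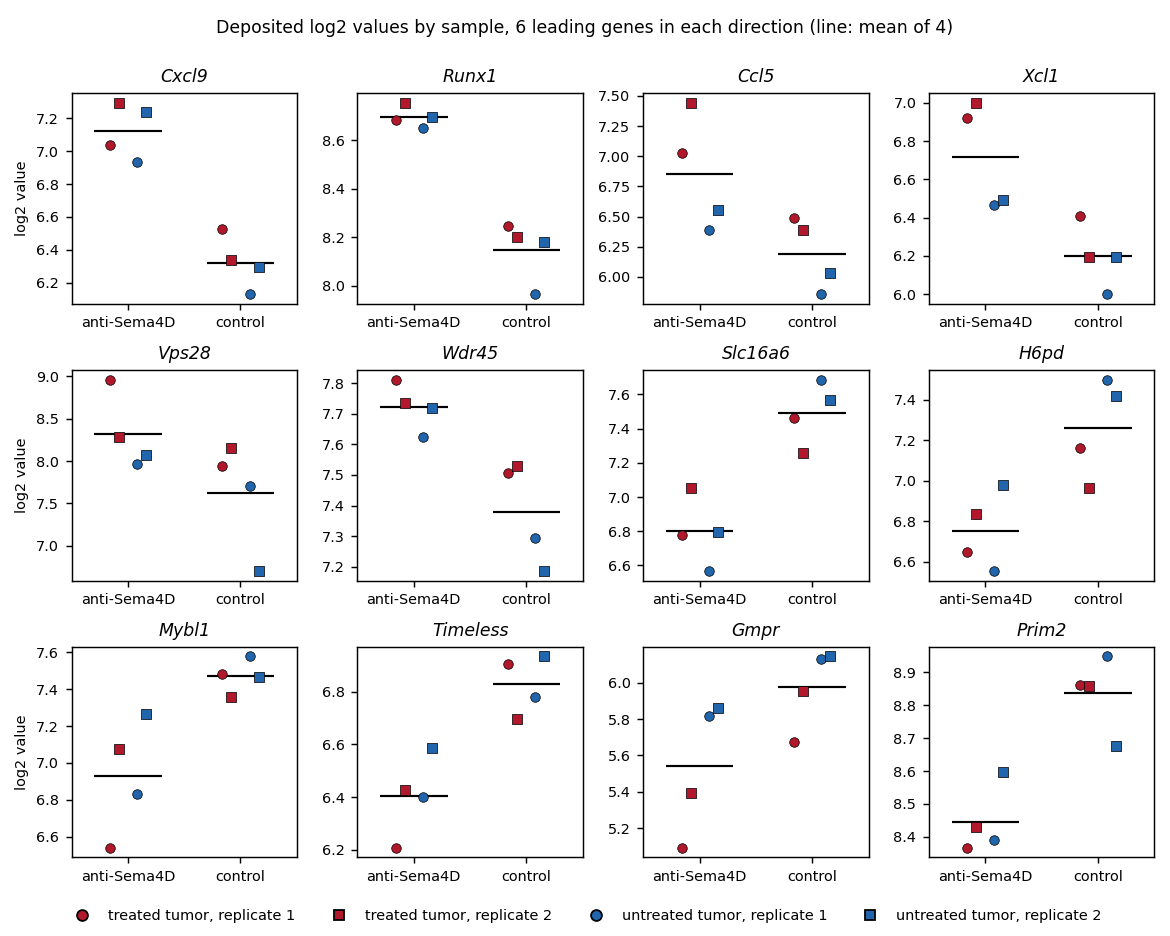
Deposited log2 values of 6 leading genes in each direction, with anti-Sema4D left and control right in each panel, 1 point per sample and a line at the mean of 4. Cxcl9, Runx1, Xcl1 and Wdr45 lie above every control, and Slc16a6, Mybl1, Timeless and Prim2 lie below every control, although no gene passed the test.

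Antigen presentation genes all lay on the higher side, without any call. All 9 measured genes had a difference above 0, against 56.25% of the panel, and their median was 0.36 against 0.04. Without untreated-tumor control replicate 2 the count was 8, and 1 of the 9, the class I gene H2-K1, was below the limit in all 8 samples. The median stayed above 0 in the 20 alternative settings, at 0.17 to 0.41, although blocks, the variance model and the fit over all 18 samples could not move it. The MHC class II chains H2-Aa and H2-Eb1, which display peptides to helper T cells, and the proteasome activator subunit Psme2 had an unadjusted p under 0.05. H2-Aa read 13.35 and 13.50 in treated and 13.05 and 13.25 in untreated anti-Sema4D tumors, against 12.81 and 12.89 in treated and 12.42 and 13.13 in untreated control tumors. The arms overlapped only through untreated-tumor control replicate 2, and the difference was 0.48 ± 0.18 (SE, limma adjusted p = 0.636), or 0.64 without it. H2-Eb1 differed by 0.45 ± 0.17 and Psme2 by 0.42 ± 0.18 (SE, limma adjusted p = 0.636 for both). The class I genes H2-D1 and H2-T23, which present to CD8 T cells, differed by only 0.11 ± 0.21 and 0.02 ± 0.14.

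Of 7 interferon response genes, 5 had a difference above 0 and the median was 0.21. The kinase Jak2, which relays signals of interferon receptors, differed by 0.41 ± 0.20 (SE, limma adjusted p = 0.636). Irf1, a transcription factor that interferon induces, spanned 9.61 to 9.93 in anti-Sema4D tumors and 9.53 to 9.57 in control tumors, so its arms did not overlap (difference 0.21 ± 0.13 SE). Interferon-gamma itself (Ifng) was below the limit in all 8 samples. Of 10 genes of Toll-like receptor and NF-kB signalling, 9 had a difference above 0, with a median of 0.19. Among them the endotoxin receptor Tlr4 averaged 8.54 ± 0.27 in anti-Sema4D tumors and 8.11 ± 0.37 in control tumors (SD, n = 4 each), a difference of 0.42 ± 0.16 (SE, limma adjusted p = 0.636). Of 10 cytokines and chemokines 6 were above 0, near the 56.25% of the panel, with a median of 0.20, and 4 of the 10 were below the limit in all 8 samples. Among the 5 above the limit in at least 4 samples, 3 were above 0, with a median of 0.13. Tnf, a macrophage cytokine, differed by 0.35 ± 0.18. Centring on the positive control probes, which moved the median of all genes to -0.16, left the medians of these 3 lists at 0.01, 0.00 and 0.00.

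Most T cell transcripts were below the limit. Of 13 T cell markers, 9 were below the limit in all 8 samples, among them the defining markers Cd3e, Cd8a and Cd4, and 3 exceeded it in at least 4. These 3, the receptor chains Cd3d and Cd3g and the kinase Lck, differed by -0.08 ± 0.17, 0.14 ± 0.23 and -0.06 ± 0.15 (SE). The median difference of the 13 was -0.11, and their summed linear signal ran from 319 to 472 in anti-Sema4D tumors and from 372 to 452 in control tumors. Of 13 cytotoxic lymphocyte genes, 6 had a difference above 0 and the median was -0.10, or 0.02 without untreated-tumor control replicate 2. At an unadjusted p under 0.05, 2 were lower and 0 higher, and both lay below the limit in all 8 samples. They were Tbx21, a transcription factor of cytotoxic cells, at -0.89 ± 0.26, and the death ligand Fasl at -0.51 ± 0.20 (SE, limma adjusted p = 0.636 for both). The activating receptor Klrk1 (NKG2D), above the limit in every sample, differed by 0.40 ± 0.20 (SE, limma adjusted p = 0.636). The transcription factor Eomes, which drives cytotoxic cells, and the granule protease Gzmb also stayed below the limit in all 8 samples, as did Nos2 and Ido1.

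Of 5 macrophage markers 4 had a difference above 0 and none passed, with a median of 0.17, which was -0.02 after centring on the positive control probes. Without untreated-tumor control replicate 2 all 5 were above 0, with a median of 0.19. Their summed linear signal ran from 6156 to 7647 in anti-Sema4D tumors and from 5532 to 7119 in control tumors. Cd14, a coreceptor for endotoxin on myeloid cells, averaged 12.61 ± 0.12 in anti-Sema4D tumors and 12.44 ± 0.15 in control tumors (SD, n = 4 each), a difference of 0.17 ± 0.14 (SE). The lysosomal protein Cd68 differed by 0.13 ± 0.15 and the integrin Itgam by -0.19 ± 0.20. The surface receptor Cd84 differed by 0.28 ± 0.17, and the scavenger receptor Cd163, below the limit in all 8 samples, by 0.65 ± 0.33 (SE). Arginase 1 (Arg1), which depletes arginine in myeloid cells, averaged 12.39 ± 0.37 in anti-Sema4D tumors and 12.07 ± 0.36 in control tumors, with an interval of the difference from -0.18 to 0.83. The checkpoint ligand Cd274 (PD-L1) differed by 0.14 ± 0.20 (interval -0.32 to 0.61). In tumor pieces of mixed cells, fewer cells of a type and less RNA per cell cannot be told apart, and the part of these marker levels in the differences above was not tested.

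All 5 endothelial and stromal markers had a difference above 0 (median 0.21), with the collagen VI chains Col6a3 and Col6a1 at 0.21 ± 0.19 and 0.20 ± 0.19. Of the 5, 1 was below the limit in all 8 samples. The median was 0.32 in treated and -0.06 in untreated tumors, and 0.01 after centring on the positive control probes. Without untreated-tumor control replicate 2, 4 were above 0, with a median of 0.30. The growth factor Vegfa, which drives vessel growth, averaged 8.47 ± 0.16 in anti-Sema4D tumors and 8.35 ± 0.50 in control tumors (SD, n = 4 each). Its difference was 0.13, and -0.15 without untreated-tumor control replicate 2, so its sign rested on that sample.

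**Figure D3:**
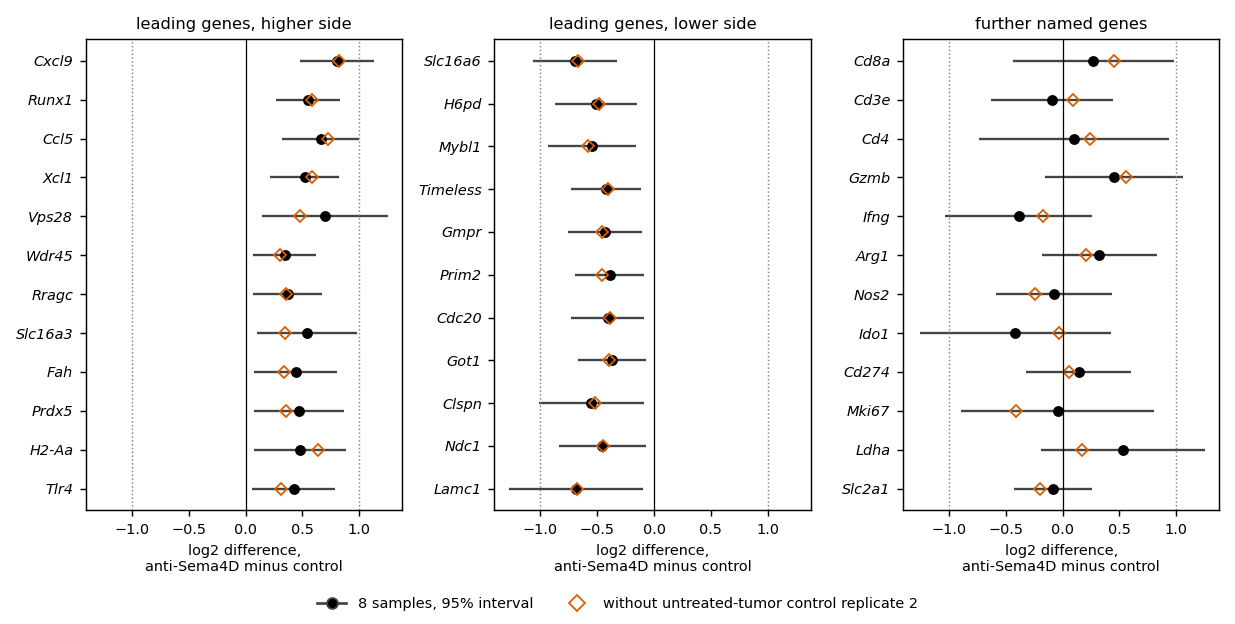
Log2 differences, anti-Sema4D minus control, with 95% intervals (black, 8 samples) and values without untreated-tumor control replicate 2 (orange), for leading genes in each direction and 12 further genes. Dotted lines mark a 2-fold change, and without that sample Ldha lies at 0.17 and Mki67 at -0.41.

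Proliferation genes lay on the lower side. All 12 cell cycle genes measured had a difference below 0, while 56.25% of the panel lay above it, with a median of -0.14, and -0.30 without untreated-tumor control replicate 2. Of 12 DNA repair genes, 11 were below 0, with a median of -0.22, and -0.37 without that sample. Both medians were below 0 in the 20 alternative settings, although blocks, the variance model and the fit over all 18 samples could not move them. In treated tumors the medians were -0.36 for the cell cycle and -0.45 for DNA repair. In untreated tumors they were -0.04 and -0.06, and against control replicate 1 alone -0.15 and -0.32. The difference between the kinds of tumor was not tested for the lists. The Fanconi anemia gene Fanca, which acts in the repair of crosslinked DNA, read 7.15 and 7.90 in treated and 7.45 and 7.78 in untreated anti-Sema4D tumors. It read 8.24 and 7.82 in treated and 8.04 and 8.29 in untreated control tumors. The arms overlapped through replicate 2 of the treated tumors of both arms (difference -0.53 ± 0.20 SE, limma adjusted p = 0.636).

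Single genes of mitosis and DNA copying on the lower side, named for their small p, were these. Cdc20, the activator of the anaphase-promoting complex, spanned 6.09 to 6.58 in anti-Sema4D tumors and 6.63 to 6.84 in control tumors, a difference of -0.41 ± 0.14. The replication fork protein Timeless spanned 6.21 to 6.59 in anti-Sema4D tumors and 6.70 to 6.94 in control tumors, a difference of -0.43 ± 0.13. Prim2, the large primase subunit, differed by -0.39 ± 0.13 and the checkpoint adaptor Clspn by -0.55 ± 0.20 (SE, limma adjusted p = 0.636 for all 4). Mki67, the common marker of dividing cells, differed by -0.04 ± 0.37, with 7.55 and 8.34 in treated and 7.41 and 8.40 in untreated anti-Sema4D tumors against 8.34 and 8.42 in treated and 8.27 and 6.84 in untreated control tumors. Its difference was -0.41 without untreated-tumor control replicate 2, which held the lowest value.

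Lipid synthesis had the lowest median of the metabolic lists. Of 8 genes of fatty acid and cholesterol synthesis, 6 had a difference below 0 with a median of -0.30, and all 8 without untreated-tumor control replicate 2, with a median of -0.40. The desaturase Scd1 spanned 10.11 to 10.49 in anti-Sema4D tumors and 10.51 to 10.93 in control tumors, and the acetyl-CoA carboxylase Acacb 6.33 to 6.98 in anti-Sema4D tumors and 7.05 to 7.28 in control tumors. Neither pair of ranges overlapped (differences -0.44 ± 0.16 and -0.46 ± 0.18, SE, limma adjusted p = 0.636 for both). Fatty acid synthase (Fasn) differed by -0.53 ± 0.32, and the lipid regulators Srebf1 and Srebf2 by 0.04 ± 0.22 and -0.20 ± 0.15. In nucleotide synthesis, 9 of 14 genes were below 0 (median -0.09), led by Cad, the first enzyme of pyrimidine synthesis, at -0.65 ± 0.25 (SE, limma adjusted p = 0.636).

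A transporter gave the lowest difference among the leading genes. Slc16a6, a monocarboxylate transporter that exports ketone bodies from zebrafish liver, read 6.78 and 7.06 in treated and 6.57 and 6.79 in untreated anti-Sema4D tumors. It read 7.46 and 7.26 in treated and 7.69 and 7.57 in untreated control tumors, with no overlap. The difference was -0.69 ± 0.16 (SE), or 1.62-fold lower (limma adjusted p = 0.424). The lactate exporter Slc16a3 lay on the other side, with 5.90 to 6.23 in anti-Sema4D tumors and 4.88 to 5.68 in control tumors, a difference of 0.54 ± 0.19 and 0.35 without untreated-tumor control replicate 2.

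Several lists of energy metabolism had positive medians, some of which rested on 1 control. In glycolysis, 15 of 19 genes had a difference above 0 with a median of 0.07, which became 8 genes and -0.03 without untreated-tumor control replicate 2. Lactate dehydrogenase A (Ldha) read 11.26 and 10.83 in treated and 10.41 and 10.71 in untreated anti-Sema4D tumors, against 10.66 and 10.94 in treated and 10.49 and 8.99 in untreated control tumors. Its difference was 0.53 ± 0.32, and 0.17 without the sample at 8.99. The glucose transporter Slc2a1 differed by -0.08 ± 0.15 (interval -0.43 to 0.26). In the hypoxia response, 7 of 8 genes were above 0 with all samples and 2 of 8 without that control, and the medians were 0.09 and -0.07.

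Of 17 subunits of respiratory complex I, which passes electrons from NADH, 16 had a difference above 0 (median 0.18), and 14 without untreated-tumor control replicate 2 (median 0.10). The median was -0.01 after centring on the positive control probes. Of 18 genes of the reactive oxygen response, 16 were above 0, with a median of 0.20 and 0.15 without that control. The peroxiredoxin Prdx5 differed by 0.47 ± 0.17 and superoxide dismutase Sod1 by 0.30 ± 0.15 (SE, limma adjusted p = 0.636 for both). In arginine metabolism, where 9 of 13 genes were above 0, the ornithine aminotransferase Oat differed by 0.59 ± 0.25 and the glycine amidinotransferase Gatm by 0.35 ± 0.15. None of these genes passed the test.

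**Figure D4:**
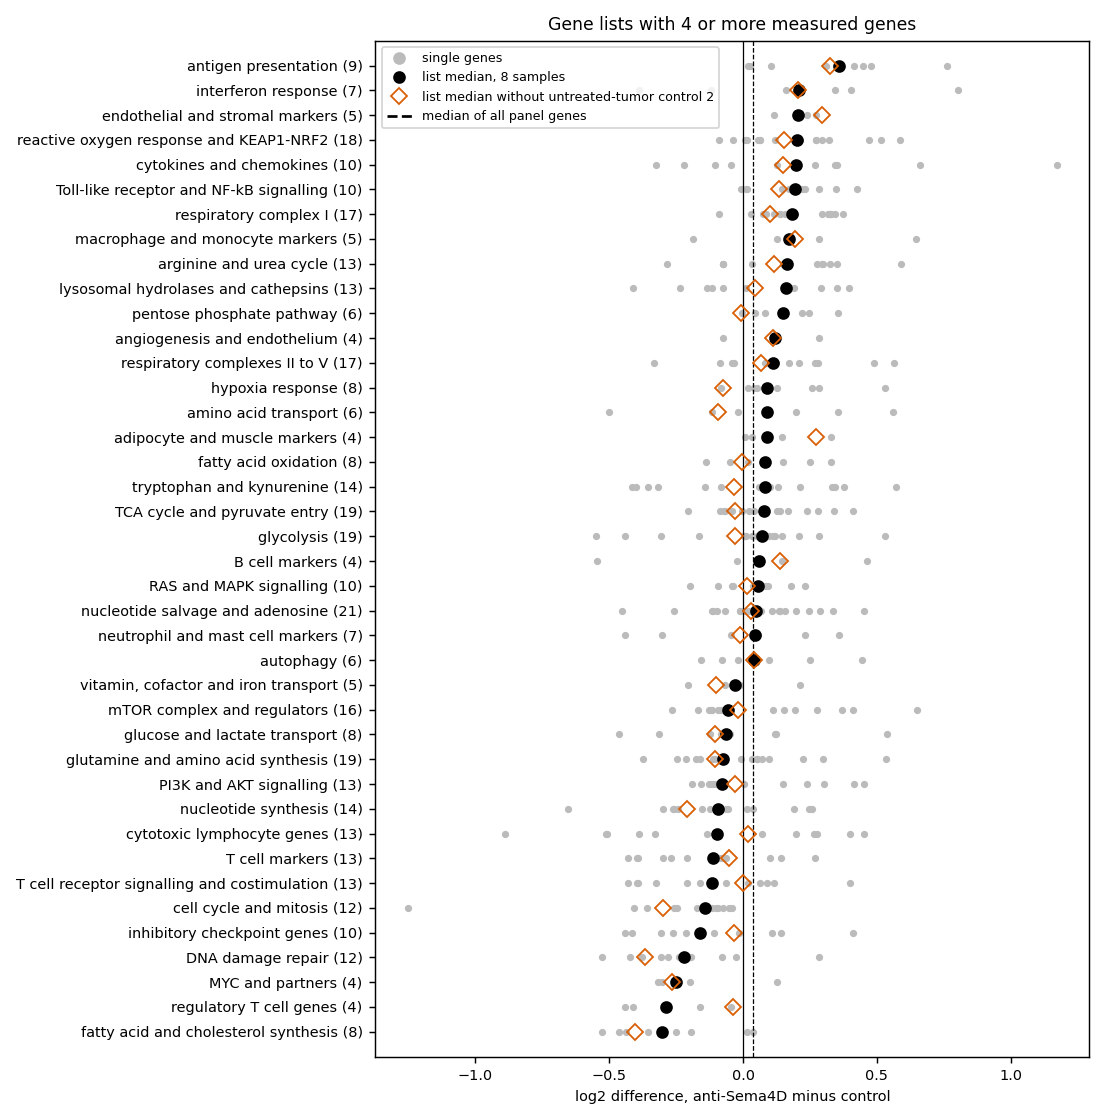
Gene lists with 4 or more measured genes (number in brackets), with the log2 difference, anti-Sema4D minus control, of single genes (grey), the median of the list (black) and its median without untreated-tumor control replicate 2 (orange). Antigen presentation lies highest at 0.36 and fatty acid and cholesterol synthesis lowest at -0.30. In at least 1 alternative setting 25 of 40 lists changed sign, counting T cell receptor signalling and costimulation, whose median only reached 0.

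The remaining genes of smallest p had these values. The endosomal sorting subunit Vps28 differed by 0.70 ± 0.24, and by 0.48 without untreated-tumor control replicate 2, where it read 6.70 against 7.70 to 8.15 in the other controls. The autophagy protein Wdr45 (0.34 ± 0.12), the GTPase Rragc, which relays amino acid supply to mTORC1 (0.37 ± 0.13), and the tyrosine-degrading enzyme Fah (0.44 ± 0.16) followed on the higher side. On the lower side stood H6pd, which makes NADPH in the endoplasmic reticulum (-0.51 ± 0.16), the germ-line MYB factor Mybl1 (-0.54 ± 0.17) and GMP reductase Gmpr (-0.43 ± 0.14). The aspartate aminotransferase Got1 (-0.37 ± 0.13), the nuclear pore protein Ndc1 (-0.46 ± 0.17) and the laminin chain Lamc1 (-0.69 ± 0.26) followed. All had a limma adjusted p of 0.636. In PI3K signalling the regulatory subunit Pik3r1 was above every control (0.30 ± 0.12), while 6 of 13 genes of that list and 7 of 16 of the mTOR list had a difference above 0.

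The 2 kinds of tumor were then read apart, with 2 samples against 2 and a shared spread. In treated tumors limma called 0 genes, with 16 at an unadjusted p under 0.05 (2.08%) and a smallest adjusted p of 1.00. In untreated tumors it called 0, with 30 (3.91%) and a smallest adjusted p of 0.783. The test of the difference between the kinds of tumor also called 0, with 18 (2.34%) and a smallest adjusted p of 0.997, so no gene was shown to respond differently. Cxcl9 differed by 0.73 in treated and by 0.87 in untreated tumors, Runx1 by 0.49 and 0.60, Ccl5 by 0.80 and 0.52, and Mybl1 by -0.61 and -0.47. Slc16a6 differed by -0.44 in treated and -0.94 in untreated tumors (interaction 0.50, unadjusted p = 0.143, limma adjusted p = 0.997). Klrb1a, a receptor of natural killer cells, had the smallest unadjusted interaction p among the measurable genes on the higher side, with 5.57 and 6.09 in treated and 5.20 and 5.46 in untreated anti-Sema4D tumors. Its controls read 5.32 and 5.81 in treated and 5.98 and 6.51 in untreated tumors (interaction 1.18 ± 0.43 SE, limma adjusted p = 0.997). Both untreated anti-Sema4D values lay below the limits of their samples, 5.30 and 5.69, and the treated control at 5.32 lay below its limit of 5.42.

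Across the 541 measurable genes, differences in treated and untreated tumors correlated at r = 0.44, and 365 (67.5%) had the same sign. This correlation is across genes, which are not independent replicates, and samples of 1 arm may share mice.

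**Figure D5:**
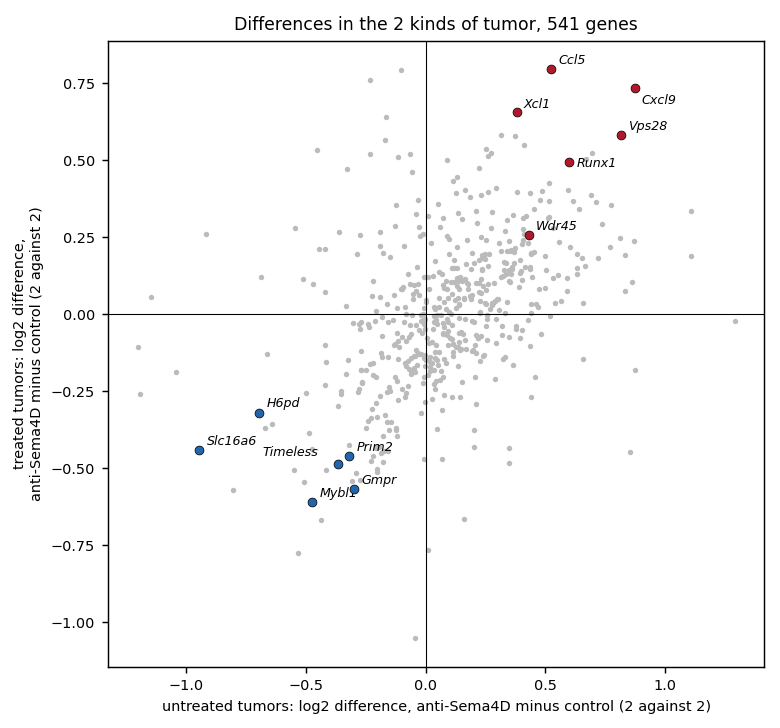
Log2 differences, anti-Sema4D minus control, in treated tumors (vertical) against untreated tumors (horizontal) for 541 genes, 2 samples against 2 in each. The leading genes of the pooled comparison are named, with Cxcl9 at 0.73 and 0.87 and Slc16a6 at -0.44 and -0.94, vertical value first.

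Set against the other single arm, tumors of mice given HER2-directed dendritic cells (HER2 DC1, 2 treated and 2 untreated tumors, also after 3 weeks), anti-Sema4D tumors differed in 69 genes by limma (8.98%), 3 higher (0.391%) and 66 lower (8.59%). The median gene was lower by 0.26, and centring each sample on its median left 0 calls by limma at a smallest adjusted p of 0.0538, with 166 genes at an unadjusted p under 0.05 against 216 (28.1%) before. The glycolytic enzyme hexokinase 2 (Hk2) read 6.38 and 7.65 in treated and 7.25 and 8.28 in untreated anti-Sema4D tumors, against 9.03 and 9.36 in treated and 8.70 and 9.18 in untreated HER2 DC1 tumors, 3.20-fold lower (limma adjusted p = 0.0384). The lactate exporter Slc16a3 was 3.11-fold lower and Cd274 2.99-fold lower (limma adjusted p = 0.0311 and 0.026). Alox15, a lipoxygenase, was at least 1.47-fold lower and the hexokinase Hk3 at least 1.38-fold lower, since both were below the limit in all anti-Sema4D tumors. Among the 4 HER2 DC1 tumors, Alox15 exceeded the limit in 3 and Hk3 in 2. The higher genes were H2-Ke6, a hydroxysteroid dehydrogenase gene in the MHC region (0.83 ± 0.16), the mitochondrial ribosomal gene Mrps5 (0.70 ± 0.15) and Cd14 (0.58 ± 0.14, SE). Mrps5 is among the 20 housekeeping genes of the panel, of which 1 was called higher and 1 lower.

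The calls against HER2 DC1 depended on the scaling, on the error model and on single samples. Limma gave 0 calls after centring on the positive control probes, with 92 genes at an unadjusted p under 0.05. It also gave 0, with 128 such genes, when tumors of the same arm and number formed a random block (correlation 0.473). Leaving out either treated-tumor sample of either arm, or replicate 1 of the untreated anti-Sema4D tumors, gave 0 calls. Leaving out untreated HER2 DC1 replicate 2 gave 13, untreated anti-Sema4D replicate 2 gave 31, and untreated HER2 DC1 replicate 1, a sample of low depth with 238079 counts, gave 143. Cxcl9 averaged 7.17 ± 0.18 in treated anti-Sema4D tumors and 8.83 ± 1.85 in treated HER2 DC1 tumors (SD, n = 2 each), and did not pass (limma adjusted p = 0.184). Its mean was 10.27 ± 1.11 in treated combination tumors (n = 3) and 6.43 ± 0.13 in treated controls (n = 2), and these arms share the same controls.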

How the data were processed

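The deposited values are log2 values of a NanoString nCounter panel, which counts barcoded RNA molecules without amplification, for 768 genes, 6 positive and 8 negative control probes. The authors' processing is known only from the submitters' processing notes, which name limma without a role or version. In 12 of 18 columns the values step by 1 factor per sample, and in the other 6, among them replicate 1 of the control and replicate 2 of the anti-Sema4D groups, they are whole numbers. The 6 housekeeping genes of the deposited scaling had a log2 mean of 10.4804 to 10.4805 in the 12 columns, whose factors ran from 0.736 to 2.58. In the 6 whole-number columns it was 10.4835 to 10.5182, near that common level. Whether those 6 are counts or rounded scaled counts was not tested, and their depths and limits here may differ from those of counts. Samples were grouped by their titles.

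Each sample's limit was the mean plus 2 SD of its negative probes, multiplied by the factor of the column. Limits, depths and the centring on positive control probes used a factor of 1 for the 6 whole-number columns. The log2 values entered limma 3.58.1 (R 4.3.3, lmFit and eBayes, trend and robust off) as they stand, with kind of tumor as a block. Benjamini-Hochberg adjustment covered all 768 genes, with a threshold of 0.05. Folds understate changes of genes with few counts. "At least" folds replace dim values by the limit. The design was tested on simulated data. Figures and tables used Python 3.11.15, pandas 2.3.3 and matplotlib 3.10.9.

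Named genes were, in each direction, the 12 largest passing changes, filled up with the smallest p among genes above the limit in 4 of 8 samples (5 for other comparisons), up to 4 per list, and a set of always named immune and metabolic genes. The comparison, lists and rule were chosen with earlier results of these data known. Some genes that met the rule, among them those of lists with medians near 0, are left out of the text, and some are not reported here. Alternatives were 3 scalings, a pseudocount of 20 in place of 1, a filter on dim genes, the variance model, the samples fitted, blocks for tumor, column kind and replicate, and leaving out each sample.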

Additional observations from a re-analysis of the deposited data

Results flagged for a closer look

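Among 72 sets of 4 samples (36 genes in each arm), 7 held a sample that exceeded the Dixon critical value, where chance gives about 1 in 20. The statistic is the gap to the nearest of the others, divided by the range of the 4 values. In the anti-Sema4D arm, treated-tumor replicate 1 was lowest for Ifng (3.06) and highest for Ido1 (2.62), both below the limit. In the control arm, untreated-tumor replicate 2 stood apart for Slc16a3 (4.88), Cd3e (4.999, the highest control), Cd274 (5.65) and Mki67 (6.84). Of these, only Mki67 exceeded the limit of that sample, 5.71. Treated-tumor control replicate 2 was lowest for Gzmb (3.74), below the limit.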

How the results depend on the processing

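Anti-Sema4D against control gave 0 calls in all 20 alternatives, with 26 to 93 genes at an unadjusted p under 0.05 and smallest adjusted p from 0.0765 to 0.977. The 24 leading genes, picked for small p in these data, kept their direction in all 20. In this balanced design the blocks, the variance model, the fit over all 18 samples and the filter on dim genes could not change a gene's difference. Only the other settings could have changed a direction. With a replicate block the count was 0 (58 at an unadjusted p under 0.05), with tumors of the same arm and number as a random block 0 (44), and with numbers crossed between arms, chosen after seeing the data and identical to a block for column kind, 0 (63). The change from replicate 2 to replicate 1 correlated across genes between the arms at -0.586 in treated and -0.269 in untreated tumors. The numbers were therefore not taken as pairs between arms. Within an arm, the same change correlated between treated and untreated tumors at 0.44 for anti-Sema4D, -0.139 for control and 0.696 for HER2 DC1. The labels do not say whether tumors of the same arm and number came from 1 mouse, so the 4 samples of an arm may not be independent. Leaving out 1 sample gave 0 to 1 calls in treated tumors (Cdca5, without treated anti-Sema4D replicate 1), 0 to 6 in untreated tumors and 0 to 3 for the interaction (both without untreated control replicate 1). Against HER2 DC1, where 69 genes passed, 0 passed after median centring, 0 after centring on positive control probes, 16 in a fit over all 18 samples, 0 with the random replicate block (correlation 0.473), 98 with the fixed replicate block and 0 to 143 with 1 sample left out. Genes whose arms did not overlap numbered 8 above, with 20 after median centring, 3 after centring on positive control probes and 9 to 39 with 1 sample left out. Below, they numbered 20, with 40 after centring on housekeeping genes, 10 on positive control probes and 20 to 51 with 1 sample left out. The cause of these changes was not tested, except that fewer samples separate more easily. Of 40 list medians 15 kept their sign in all 20 alternatives. T cell receptor signalling and costimulation was counted outside these 15, although its median only reached 0, in 1 alternative. With 4 samples per arm and 184 genes below the limit in all of them, changes of scarce transcripts were not detectable.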

Other observations

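Cdca5, a regulator of sister chromatid cohesion, varied widely between replicates and exceeded the limit in 2 of the 8 samples. It read 6.15 and 1.00 in treated and 1.00 and 1.00 in untreated anti-Sema4D tumors. It read 5.32 and 5.995 in treated and 1.00 and 1.84 in untreated control tumors. Here 1.00 stands for a linear value of 1, and 1.84 for 1 count at the factor of that sample, 2.58. Its difference of -1.25 ± 0.95 (SE) was the largest in size on the cell cycle list and did not pass (limma adjusted p = 0.696). Of 4 regulatory T cell genes, which include Foxp3 and Ctla4, all had a difference below 0 (median -0.29), and 3 of them were below the limit in all 8 samples. Without untreated-tumor control replicate 2 the median was -0.04 and 1 gene was above 0. The median was -0.04 in treated and -0.34 in untreated tumors, and in the latter 0.09 against control replicate 1 alone.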
